A study of Mus musculus with 14 samples.

Results

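Kinesins are motor proteins that turn over ATP to walk along microtubules or to take microtubules apart at their ends. In dividing cells they build the spindle, move chromosomes and separate the daughter cells. In interphase and differentiating cells they carry vesicles, mitochondria and RNA, and in cilia and in the sperm tail they move material along the axoneme. Male germ cells use all of these functions, since spermatogonia divide by mitosis, spermatocytes pass through the meiotic divisions and spermatids then build a flagellum.

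The genes described here are the rows of the deposited count tables whose gene symbol is Kif followed by a digit. The rule found 41 of 38444 genes, with 39 rows in the spermatogonia table and 41 in the spermatocyte table. It left out kinesins with other symbols, such as Kifc1 and Cenpe, which are given as partners at the end. By their main known role, 13 members act in the spindle and in cytokinesis, 13 carry cargo, 6 act in the cilium or flagellum and 6 are atypical or of another kind. The remaining rows are 2 pseudogenes, Kif4-ps and Kif22-ps, and 1 antisense RNA, Kif16bos.

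Messenger RNA was sequenced in 14 libraries of germ cells sorted from C57Bl6/J mice, either Dnmt3C KO/KO or wild-type (WT). DNMT3C is the DNA methyltransferase that methylates promoters of young transposons in male germ cells, and mutant germ cells arrest in meiosis. Spermatogonia (Spg, 3 KO and 3 WT libraries) came from mice at postnatal day 14 and were sorted as EpCAM-positive, beta-2-microglobulin-negative cells. Spermatocytes (Spc, 4 KO and 4 WT libraries) came from mice older than 20 days and were sorted by Hoechst DNA staining with propidium iodide to leave out dead cells, so that stage, age and sort cannot be told apart. Littermates were used, but the labels do not tie a library to an animal, and the p-values measure the spread between these libraries.

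Libraries held 40555726 to 53323651 counts. Levels are given as CPM (counts scaled to library size) after TMM scaling over the 14 libraries. Dnmt3c itself was low everywhere, at 1.02 to 1.99 CPM in KO and 0.965 to 1.54 in WT Spg, and at 0.991 to 1.16 in KO and 0.332 to 0.870 in WT Spc. The sources used here do not say which part of the gene the allele lacks, so these counts do not check the labels. Markers separated the sorted cells. Over 8 pachytene and later markers such as Piwil1, Pgk2 and Ldhc, the summed level was 12250.5 to 21620 CPM in WT Spc, 327 to 634 in KO Spc, 401 to 2270 in WT Spg and 198 to 231 in KO Spg. The sum over 8 spermatid markers was 71.7 to 1581 CPM in WT Spc and 2.87 to 11.6 in KO Spc. The sum over 10 spermatogonial markers was 1579.5 to 2377 CPM in KO Spc, against 154 to 854 in WT Spc. Over 8 early meiotic prophase markers such as Sycp3 and Dmc1, KO and WT Spc overlapped, at 1239 to 2313 and 1343 to 2409 CPM. In Spg these markers summed to 693 to 1088 CPM in KO and 1006 to 1227 in WT. KO Spc also had higher summed levels of 5 macrophage markers (20.5 to 90.3 against 5.09 to 5.68 CPM) and of 5 Leydig cell markers (53.4 to 318 against 13.9 to 29.5 CPM), as well as of 4 peritubular (15.4 to 147 against 2.82 to 9.10 CPM) and 3 endothelial markers (15.1 to 138 against 4.73 to 6.39 CPM), while 8 Sertoli cell markers summed to 275 to 1017 CPM in KO and 122 to 476 in WT Spc. In Spg, Sertoli markers summed to 389 to 1358 CPM in KO and 289 to 1050 in WT, so that WT Spc and WT Spg overlap in them, as they do in the peritubular (5.33 to 9.53 CPM in WT Spg) and endothelial markers (3.80 to 5.43). Leydig markers (3.68 to 6.47 CPM in WT Spg) and macrophage markers (0.501 to 2.27) were lower in WT Spg than in WT Spc, with no overlap, and so move with the WT stages too. The spermatogonial, pachytene, spermatid, macrophage, Leydig, peritubular and endothelial lists move with KO against WT in Spc. The pachytene list also moves with KO against WT in Spg, with no overlap. The part of these lists in the kinesin values was not tested. In such bulk samples, fewer cells of a type and less RNA per cell cannot be told apart. Replicates 1 and 4 of each Spc group were more alike than other pairs (chi-square per degree of freedom of 12.3 in KO and 14.7 in WT), but differed beyond sampling noise, and were kept as separate libraries. The study describes its sequencing as biological triplicates, while the labels number 4 Spc libraries per genotype and do not say whether any share an animal, which was not tested. If replicates 1 and 4 do, each Spc group holds 3 independent samples and the p-values over 4 libraries are too small. Counts of kinesins called with the pair summed are therefore given beside each comparison that uses Spc.

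**Figure D1:**
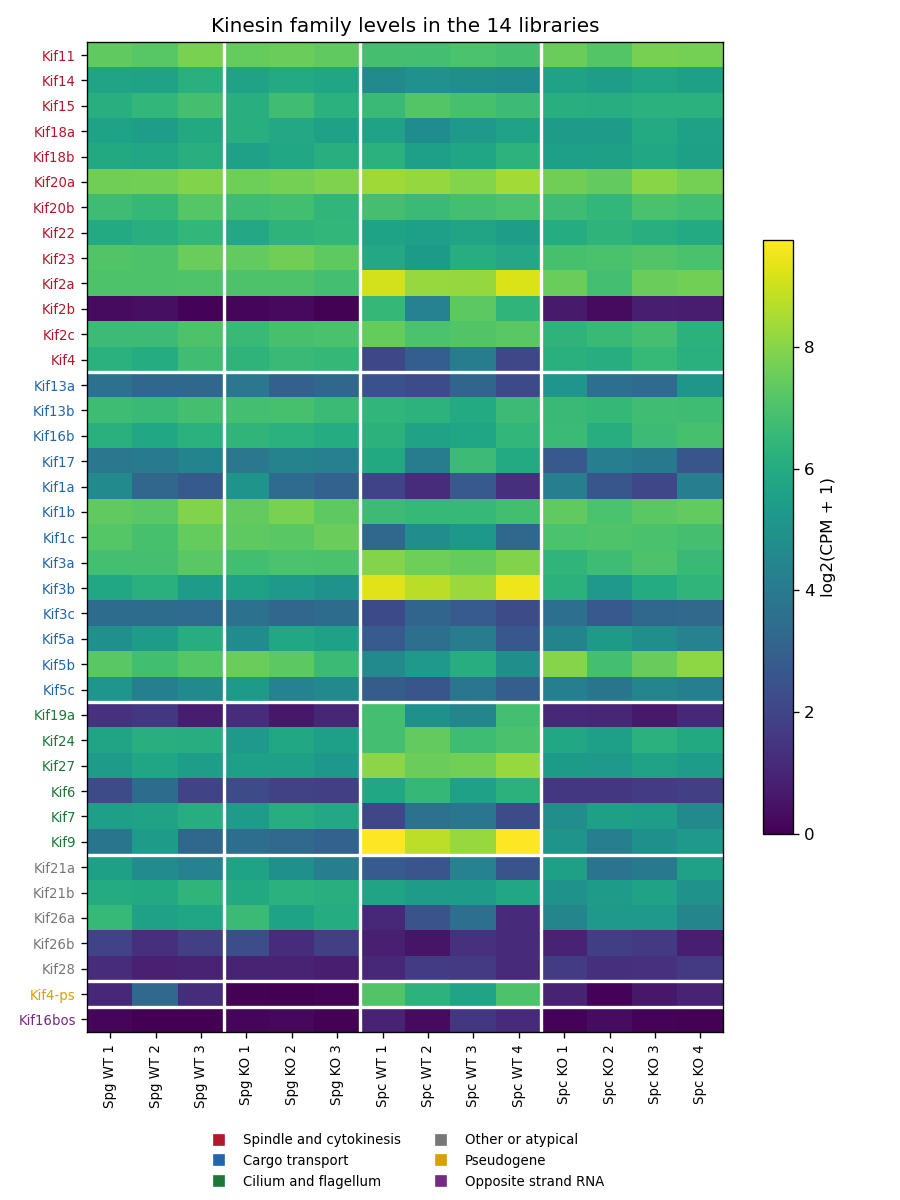
Levels of the 39 kinesin rows that passed the count filter in Spc, as log2(CPM + 1), by library (columns, grouped as Spg WT, Spg KO, Spc WT and Spc KO) and by role (rows). The Spc WT columns stand apart, with Kif2b, Kif4-ps, Kif9, Kif6 and Kif19a bright and Kif4, Kif1c, Kif7 and Kif26a dark.

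The first question was which kinesins WT spermatogonia and spermatocytes used. Divided by exon length, the highest mean levels in WT Spg (CPM per kb of exon, SD, n = 3) were those of Kif20a at 49.1 ± 5.05 and Kif3a at 35.5 ± 5.96, followed by Kif2c at 25.6 ± 3.76 and Kif11 at 23.6 ± 4.82. Kif20a brings Aurora B kinase to the central spindle, and Kif3a is a subunit of the heterotrimeric kinesin-2 that drives transport in cilia. The spreads of Kif2c and Kif11 overlap, as do those of Kif11 and the next in order, Kif2a at 20.4 ± 0.277. In WT Spc (n = 4) the order was led by Kif9, a kinesin of the sperm tail, at 142 ± 66.2, ahead of Kif3b, the partner of Kif3a, at 92.5 ± 33.2, Kif20a at 69.5 ± 9.63, Kif2a at 67.2 ± 24.4 and Kif3a at 58.8 ± 9.48. The spreads of Kif9 and Kif3b overlap each other and those of Kif20a and Kif2a. That of Kif3a overlaps those of Kif3b, Kif20a and Kif2a.

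**Figure D2:**
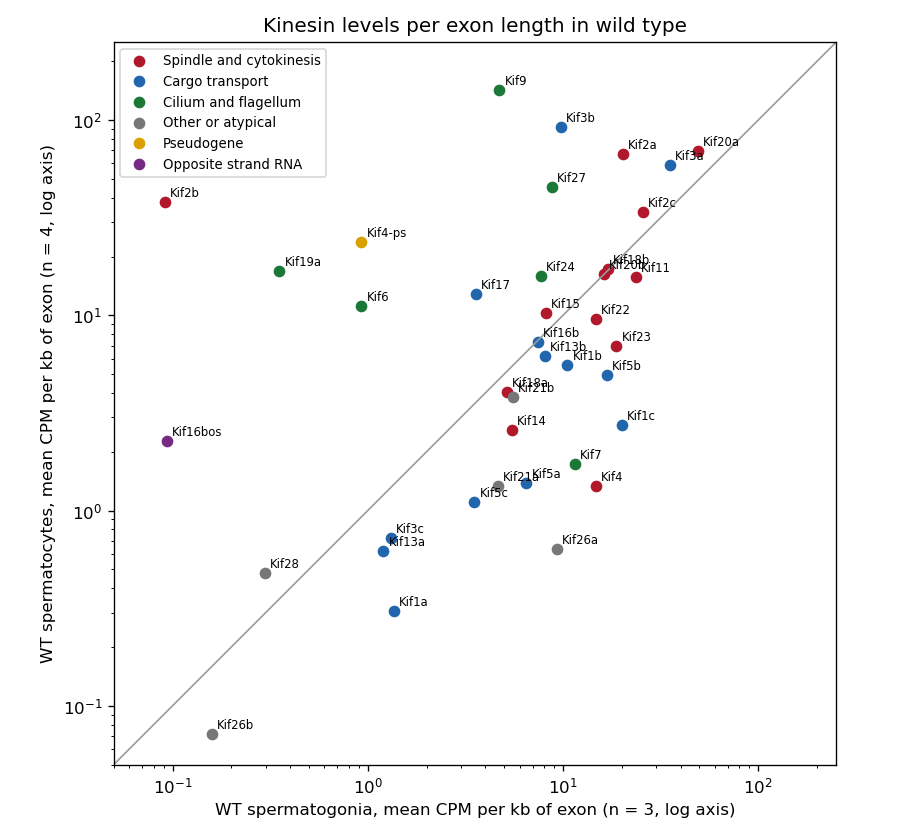
Mean level per kb of exon in WT Spg (horizontal, n = 3) and WT Spc (vertical, n = 4) on log axes, with 1 point a member, coloured by role, and the line of equal levels. Kif2b, Kif19a, Kif6, Kif9 and Kif4-ps lie far above the line and Kif26a, Kif4, Kif1c and Kif7 far below it, while most spindle members lie near it.

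Between the stages in WT, 22 of the 39 members tested were called at an adjusted p under 0.01 (edgeR quasi-likelihood test, Benjamini-Hochberg over all features), 12 of them higher in Spc and 10 lower. Over all 24340 genes tested, 29.2% were called higher and 23.3% lower, so the shares of kinesins called were near the background. With library totals in place of TMM factors, which moved the median over all genes from a log2 fold change of 0.02 to -0.76, 9 members were called higher and 22 lower. With Spc replicates 1 and 4 summed, 20 were called, without Kif3a and Kif17. The shares of all genes called with library totals or with the pair summed are not given here. These counts are therefore not set against a background. The cilium and flagellum members stood out by direction, with 5 of 6 called higher and a median log2 fold change of 2.98. In the spindle list 2 of 13 were higher and 3 lower, with a median of 0.01, and in the cargo list 3 of 13 were higher and 5 lower, with a median of -0.91. The median over all genes was 0.02.

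Kif2b, a kinesin-13 that takes microtubules apart at kinetochores, was nearly silent in WT Spg at 0.225, 0.318 and 0.0728 CPM and stood at 88.7, 19.0, 154 and 81.0 CPM in WT Spc. Its log2 fold change of 8.69 ± 0.89 (SE, adjusted p = 8.39e-06, edgeR) was the largest of the family. The order of its 4 WT Spc values was that of the summed spermatid markers, which were 540, 71.7, 1581 and 468 CPM in the same libraries. Kif17 and Kif16bos, also higher in WT Spc, were likewise highest in replicate 3 of the 4. In contrast, Kif3a, Kif3b, Kif2a, Kif6, Kif9, Kif19a, Kif24 and Kif4-ps, higher in WT Spc too, were lowest in replicate 3. Kif27 lay in between. Kif2a, of the same kinesin-13 class, also rose by 1.72 ± 0.27 (adjusted p = 1.22e-04). Among the genes that fell, Kif4, a chromokinesin that works with Prc1 in the anaphase midzone and the X-linked member of the family, went from 74.0, 63.7 and 107 CPM in WT Spg to 3.27, 6.51, 16.6 and 3.20 in WT Spc. Its log2 fold change was -3.46 ± 0.47 (adjusted p = 4.21e-05). Kif23, the motor of the centralspindlin complex, had a log2 fold change of -1.42 ± 0.19 (adjusted p = 4.23e-05), and Kif14, which acts at the midbody, of -1.08 ± 0.19 (adjusted p = 3.08e-04). The edgeR fit with the replicate number as a block did not call Kif14 (adjusted p = 0.0239).

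The cargo motors changed in both directions between the stages. Kif3b rose from 54.6, 71.4 and 39.4 CPM in WT Spg to 634, 430, 306 and 716 in WT Spc, a log2 fold change of 3.24 ± 0.36 (adjusted p = 1.27e-05). Members of the conventional kinesin-1 class, which haul vesicles and mitochondria, fell, with log2 fold changes of -2.23 ± 0.43 for Kif5a (adjusted p = 5.08e-04), -1.77 ± 0.36 for Kif5b (adjusted p = 6.99e-04) and -1.67 ± 0.37 for Kif5c (adjusted p = 0.00128). Kif5b lost the call in the edgeR fit with the replicate block (adjusted p = 0.0157). Kif1c, a kinesin-3 of vesicle transport, fell from 145, 120 and 173 CPM to 8.46, 26.6, 35.5 and 8.90, or -2.88 ± 0.41 (adjusted p = 5.54e-05). Kif3a (0.73 ± 0.20) and Kif17 (1.84 ± 0.54), called higher here, kept the call in 2 and 1 of the 14 fits without 1 library each, and without Spg WT replicate 1 their adjusted p was 0.0786 and 0.0497 at log2 fold changes of 0.51 and 1.58.

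Of the cilium and flagellum list, Kif27 (2.38 ± 0.22, adjusted p = 7.80e-06), Kif9 (4.91 ± 0.58, adjusted p = 1.68e-05), Kif6 (3.58 ± 0.43, adjusted p = 1.80e-05) and Kif19a (5.57 ± 0.72, adjusted p = 3.10e-05) were higher in WT Spc. Kif27 is needed for motile cilia, Kif6 belongs to the axonemal kinesin-9 class with Kif9, and Kif19a shortens microtubules at the tip of cilia. Kif24, which controls the start of ciliation at the mother centriole, was called with 1.04 ± 0.24, but not without Spg WT replicate 1 (adjusted p = 0.0258, log2 fold change 0.77) or replicate 3, nor with the replicate block or library totals (0.21, adjusted p = 0.445). Kif7, the exception in this list, is a regulator of Hedgehog signalling in the primary cilium and was lower by 2.74 (SE 0.45, adjusted p = 1.66e-04). Kif26a, an atypical kinesin with a role in enteric neurons, fell from 92.2, 47.3 and 53.9 CPM in WT Spg to 1.14, 4.61, 10.7 and 1.22 in WT Spc, with a log2 fold change of -3.86 ± 0.65 (adjusted p = 1.85e-04).

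In spermatogonia, the question was whether kinesins differed between Dnmt3C KO and WT before the arrest. Of the 38 members tested, 0 were called by edgeR, against 0.0436% of all 20659 genes, and 2 had an unadjusted p under 0.05, as did 1509 of the 20659 genes. DESeq2 called 1 member, Kif4-ps. The median log2 fold change was -0.04 over the members and 0.02 over all genes. The spindle list ran from -0.85 to 0.22 the cargo list from -0.59 to 0.33, and the cilium and flagellum list, with the lowest median of these at -0.51, from -1.23 to 0.02. The strongest of the cargo list, Kif3b, stood at 46.3, 36.2 and 31.1 CPM in KO and 54.6, 71.4 and 39.4 in WT (-0.59 ± 0.25, adjusted p = 0.689), and Kif24 had -0.45 ± 0.20 (adjusted p = 0.682), with overlapping groups in each case. For both genes KO lay below WT at each replicate number, and the fit with the replicate block called neither.

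Kif4-ps had the largest fold change of the family in Spg. It is a transcribed, processed copy of Kif4 on chromosome 12 (101145614 to 101149758, GRCm38, plus strand), and its longest annotated transcript was 79.5% identical to that of Kif4 over 3692 aligned columns. It had 2, 0 and 4 counts in KO Spg and 68, 451 and 77 in WT Spg, with 6 and 596 counts in all. Its log2 fold change was -6.75 ± 1.20, with an adjusted p of 0.0729 that misses the threshold. It was called by DESeq2 and by edgeR without the count filter. The highest WT library was Spg WT replicate 2, which also had the highest summed pachytene markers, 2270 CPM against 676 and 401 in the other WT libraries and 198 to 231 in KO. In the same library Kif9 was at 39.4 CPM, against 12.9 and 8.68 in the other WT and 7.41 to 10.5 in the KO libraries, and Kif6 at 9.99 CPM, against at most 3.75 in the other WT libraries and 2.61 to 3.66 in KO. The log2 fold changes of Kif9 (-1.23 ± 0.54) and Kif6 (-0.95 ± 0.49) became -0.27 and -0.18 without it, and that of Kif4-ps became -5.12. Over the 6 fits without 1 library, Kif4-ps ran from -7.66 to -5.12, with an adjusted p of up to 0.403.

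In spermatocytes, 24 of the 39 members tested were called, 11 higher and 13 lower in KO, and 12 (5 higher and 7 lower) with replicates 1 and 4 summed. For the 24, the background was high, with 28.0% of 21919 genes called higher and 30.7% lower. The share of all genes called with the pair summed is not given here. By role, the spindle list had 4 higher, 3 lower and 6 not called, and the cargo list 5 higher, 3 lower and 5 not called. All 6 of the cilium and flagellum list were called, 1 higher and 5 lower, and their median log2 fold change was -3.48, against -0.08 for the spindle, 0.71 for the cargo list and 0.11 for all genes. Of the 5 atypical members tested, Kif26a was called higher, and Kif4-ps and Kif16bos were lower. With library totals in place of TMM factors, the median over all genes moved to 0.79, and 16 members were called higher and 7 lower. The share of all genes called with these totals is not given here, so these counts are not set against a background.

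A core of 12 members kept the call in all 18 alternative settings. The setting with an adjusted p under 0.05 uses the same fit, so no call could be lost in it. Kif4, Kif23, Kif1c, Kif5b and Kif7 were higher, and Kif2b, Kif3b, Kif6, Kif9, Kif19a, Kif27 and Kif4-ps lower. With replicates 1 and 4 of each group summed to 1 library, the same 12 were the members called. A further 3, Kif2a, Kif3a and Kif24, kept the call without any 1 library but lost it with library totals, with adjusted p of up to 0.216.

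**Figure D3:**
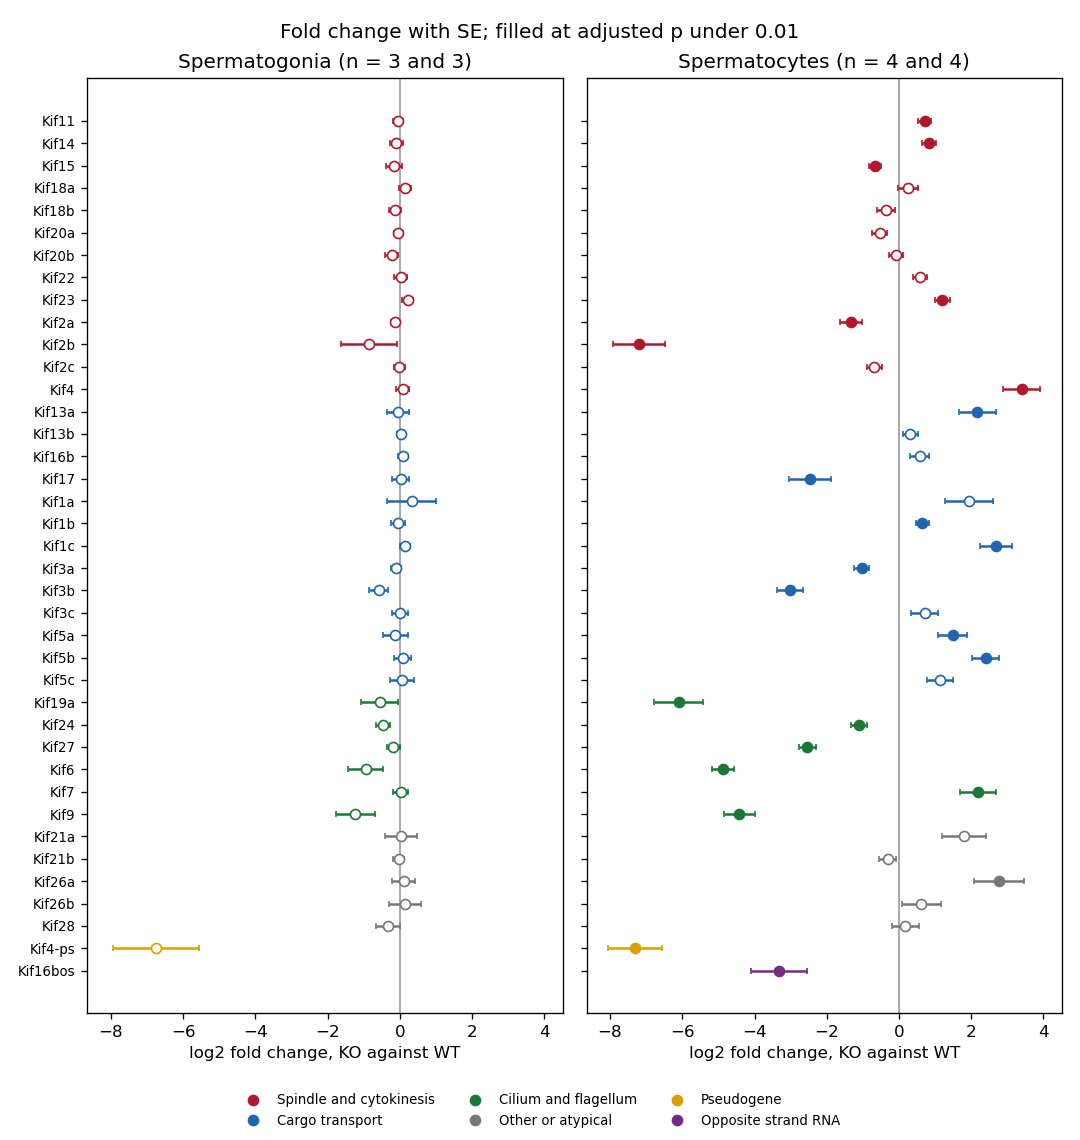
Log2 fold change of KO against WT with its SE in Spg (left) and Spc (right), on 1 scale, with members coloured by role and filled where the adjusted p was under 0.01. No symbol is filled in Spg, where all but Kif4-ps lie between -1.23 and 0.33, and in Spc the fold changes span -7.31 to 3.40.

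Of the 13 spindle motors, 6 were not called in Spc by edgeR. Kif20b, a midbody kinesin, was at 106, 87.6, 121 and 109 CPM in KO and 116, 98.7, 113 and 127 in WT, and Kif18a, which limits chromosome movement at the metaphase plate, had a log2 fold change of 0.25 ± 0.28. Kif20a (-0.53 ± 0.20), Kif2c (-0.68 ± 0.21), Kif18b (-0.36 ± 0.25) and Kif20b (-0.08 ± 0.18) were below 0 with TMM factors and above 0 with library totals, and edgeR called none with either. Kif2c was called by DESeq2 and by edgeR without Spc KO replicate 3, and Kif18a and Kif22 were called higher with library totals. Kif2c corrects faulty kinetochore attachments and Kif18b trims astral microtubules. The chromokinesin Kif22 had 0.58 ± 0.18 (adjusted p = 0.0164).

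Against this, Kif4 was at 72.6, 66.7, 92.4 and 71.4 CPM in KO Spc and 3.27, 6.51, 16.6 and 3.20 in WT Spc. The KO values lay in the range of Spg, at 63.7 to 107 CPM over its 6 libraries, and the groups were well apart (log2 fold change 3.40 ± 0.52, adjusted p = 3.00e-04). Kif23 was at 118, 124, 136 and 123 CPM in KO and 58.0, 38.9, 66.5 and 57.8 in WT (1.20 ± 0.21, adjusted p = 6.19e-04). In the other direction Kif2b had 0.627, 0.215, 0.743 and 0.713 CPM in KO, against 19.0 to 154 in WT (-7.20 ± 0.72, adjusted p = 2.74e-05). The spermatid markers, whose order Kif2b followed in WT, summed to 5.34, 2.87, 11.6 and 6.25 CPM in these KO libraries. Kif2a was at 185, 113, 181 and 204 CPM in KO and 539, 298, 294 and 588 in WT (-1.32 ± 0.31, adjusted p = 0.00358).

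Kif4-ps and its parent moved in opposite directions. In WT Spc the copy had 134, 77.7, 50.7 and 130 CPM, and in KO 0.930, 0.0717, 0.534 and 0.937 (-7.31 ± 0.74, adjusted p = 2.95e-05). Per kb of exon, Kif4 fell from 14.8 ± 4.15 in WT Spg to 1.34 ± 1.15 in WT Spc, while Kif4-ps went from 0.929 ± 1.07 to 23.7 ± 9.85. How reads shared between the copies were divided was not tested. Kif4 lies at 100625737 to 100727214 on the plus strand of chromosome X, and the other 40 rows are autosomal.

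The cell cycle genes homology region (CHR), written TTTGAA, is known from promoters of genes expressed in the G2 phase and mitosis. RefSeq windows from 250 bases before to 50 bases after the transcript start (GRCm38.p6) were searched on both strands for 32 of the 41 rows. A match was found for 9 of 12 spindle members, against 1 of 10 cargo, 1 of 5 cilium and flagellum and 1 of 4 atypical members, and for 20.2% of all 27025 genes with a window. The 9 windows of 30 bases below are shown on the strand of the gene, 5′ to 3′, with CHR letters (TTTGAA or its complement TTCAAA) in capitals, first those of the 4 members called higher in KO Spc.
Kif4 (chrX:100626072-100626101, plus strand): ctctgggatcaaTTTGAAacttggcggtta
Kif23 (chr9:61946780-61946809, minus strand): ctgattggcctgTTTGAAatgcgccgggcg
Kif11 (chr19:37376351-37376380, plus strand): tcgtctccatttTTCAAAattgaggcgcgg
Kif14 (chr1:136467608-136467637, plus strand): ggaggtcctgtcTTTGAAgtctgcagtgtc
Kif15 (chr9:122951050-122951079, plus strand): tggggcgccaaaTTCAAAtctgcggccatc
Kif18b (chr11:102925104-102925133, minus strand): cggaccggctagTTTGAAcgcgccgcgccg
Kif20b (chr19:34922353-34922382, plus strand): gagccgccattgTTTGAATTTGAAaaccgg
Kif22 (chr7:127042420-127042449, minus strand): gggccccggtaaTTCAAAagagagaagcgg
Kif2c (chr4:117178858-117178887, minus strand): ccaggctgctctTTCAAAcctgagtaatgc
The printed match lies 19 bases before the start in Kif11 and Kif15, 17 before it in Kif22, 103 in Kif2c and 228 in Kif14, and within 19 bases after it in Kif4, Kif18b, Kif20b and Kif23. Kif20b carries a pair of matches in a row, and Kif15 and Kif22 each have a further match, not printed, at 234 and 215 bases before the start. The members with it include Kif4, Kif23, Kif11 and Kif14, higher in KO Spc, as well as Kif15, which was lower, and Kif18b, Kif20b, Kif22 and Kif2c, which were not called. Kif2b and Kif2a, the other called spindle members, and Kif18a have no match in their windows. Outside the spindle list, the windows of Kif1a and Kif26b hold 1 match each and that of Kif27, a cilium member, holds 3, at 73, 89 and 191 bases before the start. Kif20a has no window in the table.

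**Figure D4:**
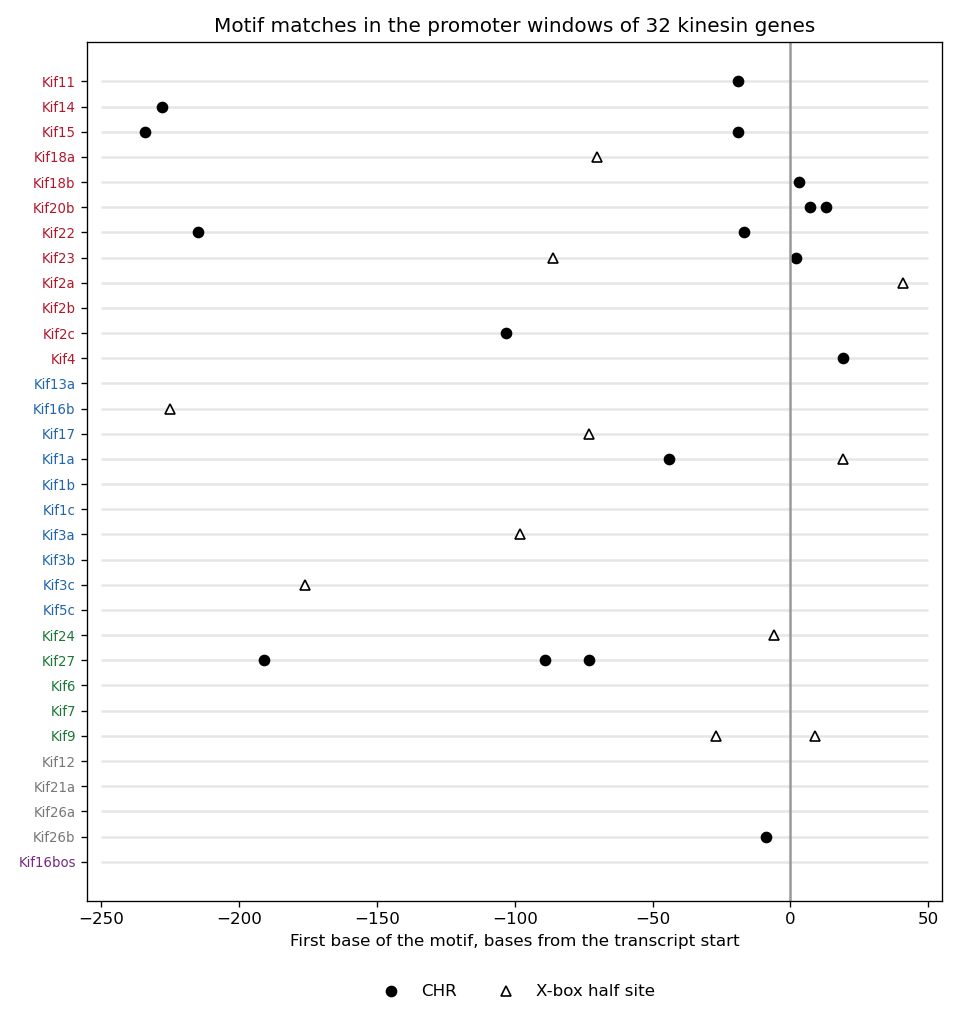
Position of the first base of each match, in bases from the transcript start, for the CHR (circles) and the X-box arm (triangles) in the promoter windows of 32 kinesin genes, coloured by role. CHR matches occur in 9 of 12 spindle members, at up to 234 bases before the start, and X-box arms occur in 10 of the 32 genes. The match of Kif9 is drawn at 2 places because its windows start at different transcript starts.

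The cargo list held changes in both directions in KO Spc. Kif5b was at 248, 113, 177 and 272 CPM in KO and 24.6, 38.0, 66.6 and 28.0 in WT (2.40 ± 0.37, adjusted p = 3.35e-04), and Kif1c at 124, 134, 121 and 117 in KO and 8.46, 26.6, 35.5 and 8.90 in WT (2.68 ± 0.44, adjusted p = 4.69e-04). Every KO library lay above every WT library for these genes, and Kif1c in the 6 Spg libraries ranged from 120 to 183 CPM. The kinesin-2 subunits Kif3a and Kif3b went down instead. Kif3b was at 75.4, 37.0, 62.9 and 81.3 CPM in KO and 634, 430, 306 and 716 in WT (-3.01 ± 0.36, adjusted p = 7.37e-05), and Kif3a at 82.1, 104, 128 and 93.5 in KO and 243, 193, 172 and 236 in WT (-1.03 ± 0.21, adjusted p = 0.00179). The pair is known to form 1 motor, yet per kb of exon WT Spc held 92.5 ± 33.2 of Kif3b and 58.8 ± 9.48 of Kif3a, and KO Spc 11.4 ± 3.49 and 28.4 ± 5.46. Kif3c (0.71 ± 0.37), Kif13b (0.31 ± 0.21), Kif16b (0.57 ± 0.27), Kif1a (1.93 ± 0.66) and Kif5c (1.13 ± 0.36) were not called by edgeR. DESeq2 called Kif1a and Kif5c, as did edgeR without Spc WT replicate 3, and edgeR without Spc KO replicate 3 called Kif1a. With library totals Kif13b, Kif16b and Kif5c were called.

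Of the cilium and flagellum list, Kif9 had 31.9, 17.1, 28.8 and 36.3 CPM in KO Spc and 856, 441, 300 and 851 in WT Spc (-4.42 ± 0.43, adjusted p = 2.41e-05). Kif6 had 2.02, 1.97, 2.29 and 2.61 CPM in KO and 56.6, 89.7, 46.2 and 74.8 in WT (-4.89 ± 0.31, adjusted p = 3.08e-06), the smallest p of the family. Kif19a, at 1.15, 1.07, 0.591 and 1.18 CPM in KO, stood at 113, 28.5, 21.0 and 112 in WT (-6.10 ± 0.69, adjusted p = 5.44e-05). For each of these 3 kinesins of the axoneme, every KO library lay below every WT library. Kif27 was at 38.2, 37.1, 47.9 and 39.7 CPM in KO and 261, 189, 202 and 301 in WT (-2.54 ± 0.23, adjusted p = 1.45e-05), and Kif24 at 54.8, 44.3, 73.9 and 59.5 in KO and 113, 168, 103 and 123 in WT (-1.10 ± 0.23, adjusted p = 0.00167). Kif7 went up, with 27.4, 45.9, 42.1 and 24.4 CPM in KO against 3.18, 11.4, 13.2 and 3.72 in WT (2.19 ± 0.49, adjusted p = 0.00267).

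**Figure D5:**
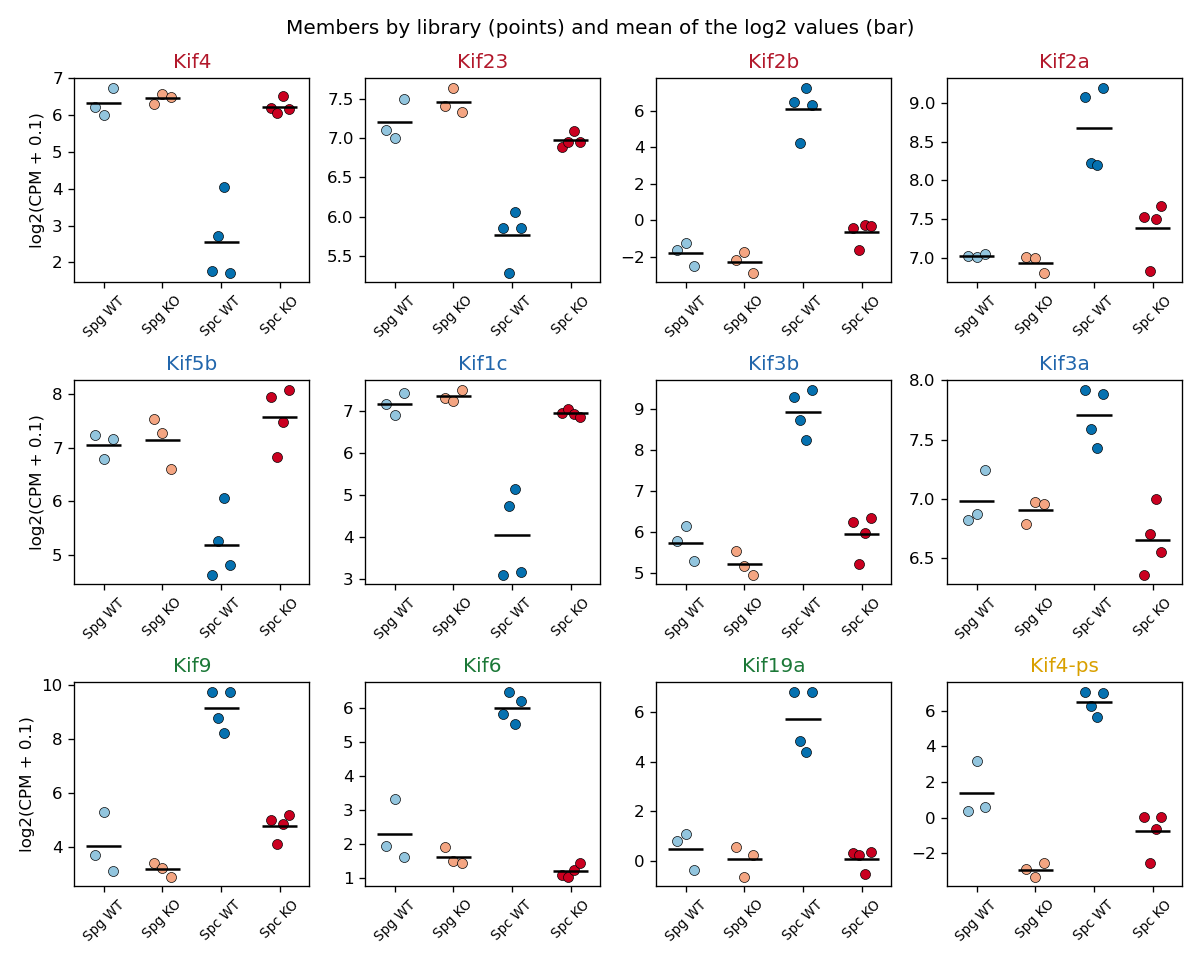
Levels of 12 members in each library, as log2(CPM + 0.1), for Spg WT, Spg KO, Spc WT and Spc KO, with points for libraries and bars for the mean of the log2 values, and with separate vertical axes. For each of the 12, all picked from the members called in Spc, the Spc KO points lie apart from the Spc WT points, below them for Kif2b, Kif2a, Kif3b, Kif3a, Kif9, Kif6, Kif19a and Kif4-ps and above them for Kif4, Kif23, Kif5b and Kif1c. Over the family, 24 of the 39 rows tested had no overlap between these groups, and the share over all genes was not computed.

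Genes of cilia often carry an X-box, an element bound by RFX factors, of which 1 arm, GTTGCC (or GGCAAC on the other strand), was searched in the same windows. It was found for 5 of 10 cargo, 2 of 5 cilium and flagellum, 3 of 12 spindle and none of 4 atypical members, and for 14.1% of all genes with a window. The windows below, on the strand of the gene with the X-box arm in capitals, are those of 4 members that were lower in KO Spc.
Kif9 (chr9:110476955-110476984, plus strand): tgcaggcttcctGTTGCCatggcgactgtg
Kif24 (chr4:41464837-41464866, minus strand): ggcgcttgtggcGTTGCCatggggatgtgg
Kif3a (chr11:53567259-53567288, plus strand): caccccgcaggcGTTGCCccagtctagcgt
Kif17 (chr4:138262166-138262195, plus strand): gacgtcacggagGTTGCCcagcaacggcga
Kif2a, also lower, has the X-box arm, as do Kif1a, Kif16b, Kif18a and Kif3c, which were not called, and Kif23, which was higher. The windows of Kif3b, Kif6, Kif27 and Kif2b hold none, and that of Kif19a was not in the table.

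The remaining 9 of the 24 called members each lost the call when 1 of several libraries was left out, 3 to 7 of the 8 in turn. Kif13a (2.17 ± 0.52), a kinesin-3 of endosomes, was at 33.3, 10.7, 9.61 and 35.0 CPM in KO and 3.55 to 8.17 in WT, with the highest KO values in replicates 1 and 4. Sertoli markers in these KO libraries summed to 1017, 371, 275 and 944 CPM and Leydig markers to 318, 53.4, 59.3 and 259.7 CPM, also highest in replicates 1 and 4, and their part in Kif13a was not tested. Kif26a (2.76 ± 0.69), Kif5a (1.48 ± 0.41), Kif14 (0.82 ± 0.20), Kif11 (0.71 ± 0.19), the motor that pushes spindle poles apart, and Kif1b (0.65 ± 0.18) were likewise higher in every KO library than in any WT library. Kif15 (-0.67 ± 0.17), which helps Kif11 to hold the spindle bipolar, was lower in every KO library, but its log2 fold change was 0.01 with library totals. Kif17 (-2.46 ± 0.58), a homodimeric kinesin-2 known from testis, was at 5.68, 17.1, 14.4 and 5.11 CPM in KO and 58.9, 16.1, 100 and 60.4 in WT, so that WT replicate 2, the library lowest in spermatid markers, lay inside the KO range. Kif16bos (-3.32 ± 0.77), read from 142902965 to 142903572 on the plus strand of chromosome 2 next to Kif16b on the minus strand, rested on 23 counts in KO and 159 in WT, with overlapping groups. With the 1 library left out that raised it most, the adjusted p was 0.0136 for Kif13a, 0.0148 for Kif26a, 0.0288 for Kif5a, 0.0201 for Kif14, 0.0258 for Kif11, 0.0313 for Kif1b, 0.0263 for Kif15, 0.0104 for Kif17 and 0.0118 for Kif16bos. These libraries were WT replicate 2 for Kif13a, Kif26a, Kif11 and Kif1b, WT replicate 1 for Kif5a and Kif14, and KO replicate 1 for Kif15, Kif17 and Kif16bos. The log2 fold changes in these fits were 2.03 for Kif13a, 2.76 for Kif26a, 1.28 for Kif5a, 0.74 for Kif14, 0.65 for Kif11, 0.57 for Kif1b, -0.63 for Kif15, -2.24 for Kif17 and -3.19 for Kif16bos, each of the same sign as with all libraries.

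Of the atypical members that edgeR did not call, Kif21a and Kif21b, which slow microtubule growth, had log2 fold changes of 1.81 ± 0.61 and -0.32 ± 0.24 in Spc, and Kif26b and Kif28 had 0.61 ± 0.54 and 0.17 ± 0.37. Kif21a was called by DESeq2 and by edgeR without Spc WT replicate 3, and Kif21b was at 0.43 with library totals. Kif12 and Kif22-ps were listed in the Spc table alone, with 7 and 6 counts over the KO libraries and 0 in WT. The count filter of the main fit left them out, as it did Kif16bos in Spg.

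The difference between the stages was then tested directly, as the genotype effect in Spc minus that in Spg. Of the 39 members tested, 9 were called. The effect of Kif1c (2.46 ± 0.57), Kif5b (2.25 ± 0.51) and Kif4 (3.25 ± 0.65) was more positive in Spc, against 11.1% of all genes. That of Kif2b (-6.42 ± 1.08), Kif19a (-5.58 ± 0.88), Kif6 (-4.02 ± 0.55), Kif9 (-3.25 ± 0.68), Kif3b (-2.48 ± 0.46) and Kif27 (-2.41 ± 0.29) was more negative, against 14.6% of all genes. Their adjusted p ran from 1.53e-04 for Kif27 to 0.00411 for Kif1c. Kif5b lost the call without Spg KO replicate 3 (2.13, adjusted p = 0.0103), with the replicate block and with Spc replicates 1 and 4 summed (1.93, adjusted p = 0.0147), which left 8 members called, and Kif9 without Spg WT replicate 1 (-2.92, adjusted p = 0.0115), and without Spc WT replicate 3 the count rose to 15. For Kif4-ps, which had fewer counts in KO at each stage, the difference was -0.64 ± 1.77 (adjusted p = 0.798). For Kif23 (0.93 ± 0.28, adjusted p = 0.0152) and Kif7 (2.09 ± 0.63, adjusted p = 0.0168) the test missed the threshold.

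Transposon copies inside the members were read from the locus table, whose unit is TPM, scaled for length over transposon copies alone. Of 4918 copies that overlap a member, 40 belong to young L1Md, IAP, MMERVK10C and RLTR10C subfamilies, in 15 genes. A group mean of 0.5 TPM or more was reached by 8 of these 40, in 7 genes. An IAPEz-int copy on the strand opposite to Kif24, in an intron (chr4:41456343-41459601), had 1.45, 0.795 and 0.830 TPM in KO Spg and 0.0519, 0 and 0 in WT Spg, and 0.542, 0.618, 1.04 and 0.887 in KO Spc, and was listed at 0 in all 4 WT Spc libraries. The IAPLTR1_Mm copy nearby (chr4:41454735-41455133), which overlaps an annotated exon of Kif24 on the other strand, averaged 1.25 TPM in KO and 0.141 in WT Spg, and 0.791 in KO and 0 in WT Spc. Kif24, on whose gene these lie, was lower in KO Spc and not called in Spg, as given above. An L1Md_F2 copy in an intron of Kif23 averaged 2.16 TPM in KO and 4.40 in WT Spg, and 1.64 in KO and 0.837 in WT Spc. Young copies share reads, so that values of single copies are uncertain.

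Of 19 partners and kinesins outside the rule, edgeR called 0 in Spg. In KO Spc it called 2 higher and 3 lower, below the 28.0% and 30.7% of all genes. Kifc3, a minus-end directed kinesin, fell by 3.20 on the log2 scale (SE 0.27), Klc2, a light chain of kinesin-1, by 1.58 and Prc1, the midzone crosslinker that binds Kif4, by 1.47. Trak2, which ties kinesin-1 to mitochondria, was higher by 1.55 and Kifc1, which gathers spindle poles, by 0.97. The other 14, among them Racgap1, the centralspindlin partner of Kif23 (-0.12), Kifap3, the cargo subunit bound by Kif3a and Kif3b (-0.81), and Cenpe, the kinetochore kinesin (0.08), were not called by edgeR. Kifap3, whose KO libraries all lay below the WT libraries, was called in 5 of 18 alternatives, among them DESeq2 (adjusted p = 0.00565) and edgeR without Spc KO replicate 4, while with library totals it was at -0.15 (adjusted p = 0.586). The call of Kifc1 was lost without Spc WT replicate 4 (adjusted p = 0.0109), and likewise when replicates 1 and 4 were added up (at an adjusted p of 0.0209). The other 4 called partners kept the call when these were summed. Between the WT stages 8 partners were called, against 29.2% of all genes called higher and 23.3% lower. Kifc3 (2.66), Klc2 (1.55), Prc1 (1.47) and Kifap3 (1.40) were higher in WT Spc, and Klc3 (-1.87), Trak2 (-1.25), Kifc1 (-1.10) and Klc1 (-1.03) lower. For Kifap3, Klc1, Klc3, Trak2 and Kifc1 this contrast was not run with replicates 1 and 4 summed, and the adjusted p of Klc1, 0.00987, lies near the threshold.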

How the data were processed

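Polyadenylated RNA of sorted germ cells was sequenced from Dnmt3C KO/KO and WT mice (Spg, 3 libraries per genotype, and Spc, 4). The authors trimmed reads with cutadapt 4.0, aligned them with STAR 2.7.3a to GRCm38 and deposited raw counts per gene and transposon subfamily from TEtranscripts, reverse-stranded, and TPM values per transposon copy from TElocal. The authors' own DESeq2 1.44.0 columns of fold changes and p-values were not used. A further Spg library per genotype, left out by the study for RNA quality, is not analysed here. Spg columns numbered 4 belong to the samples titled replicate 3.

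Counts were tested with edgeR 4.0.16 in R 4.3.3 (filterByExpr, TMM factors over genes and transposon subfamilies, quasi-likelihood test, Benjamini-Hochberg over all features, calls at an adjusted p under 0.01), with each stage fitted alone and the stage and difference contrasts fitted over 4 groups. SE was the absolute log2 fold change over the square root of F. Alternatives were DESeq2 1.42.0, other scaling, filters and thresholds, a replicate block, summed replicates 1 and 4, and each library left out. In Spg, deviations of same-numbered KO and WT libraries correlated (0.52, 0.17 and 0.18), but KO replicate 2 correlated best with another number. The main fits did not take the numbers as pairs. In Spg the fit with the replicate number as a block gave 0 calls too. Exon lengths came from GENCODE M21, which matched 99.67% of Spg and 99.62% of Spc gene identifiers. Transcripts of pseudogenes were aligned with BLAST+ 2.17.0. The test was checked on simulated data. The family, the role lists and the markers were chosen with earlier results of these data known. Named genes were the members by role, with partners of known kinesin complexes. Counting error was not separated from other spread between libraries.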

Additional observations from a re-analysis of the deposited data

Results flagged for a closer look

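Of 78 groups of 4 Spc libraries tested for a library far from the others, 2 were flagged, where chance flags about 1 in 20. Kif21a was at 19.0 CPM in Spc WT replicate 3, against 4.80 to 6.05 in the other WT libraries. Kif18b was at 55.8 CPM in Spc KO replicate 3, against 44.8 to 45.2 in the other KO libraries.

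The genotype effect differed between Spc and Spg, by the edgeR test of the difference itself, for 9 of the 39 members tested. It was more positive for 3, against 11.1% of all genes, and more negative for 6, against 14.6% of all genes. The difference in log2 fold change was 2.46 for Kif1c, 2.25 for Kif5b and 3.25 for Kif4, and -2.48 for Kif3b, -5.58 for Kif19a, -2.41 for Kif27, -4.02 for Kif6, -3.25 for Kif9 and -6.42 for Kif2b. The sort and the age of the mice differ with the stage and cannot be told apart from it.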

How the results depend on the processing

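In Spg, the count of kinesins called was 0 under edgeR and 1 with DESeq2 or without the count filter, and 0 in all fits without 1 library. In Spc it was 24, fell to 12 with replicates 1 and 4 summed, ranged from 16 to 26 without 1 library each and was 27 with DESeq2. Between the WT stages it was 22, with 18 to 24 without 1 library. For the difference between the stages it was 9, with 20 at an adjusted p under 0.05, 16 with DESeq2, 17 with library totals (11 more positive and 6 more negative, at a median of 0.90 over all genes) and 8 to 15 without 1 library, the highest without Spc WT replicate 3. Shares of all genes called are given for the main fits alone, so counts under alternatives have no background here. Same-numbered Spc libraries correlated at 0.08, 0.21, -0.01 and 0.12, and the main fit did not take the numbers as pairs there either. With the replicate block, 16 members were called in Spc, 15 between the stages, 12 for the difference and 0 in Spg. Between the stages the block lost Kif17, Kif1b, Kif3a, Kif5b, Kif24, Kif16bos and Kif14.

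Of the values for named genes under an alternative, 1602 kept their direction and side of the threshold, 134 lost the call, 49 gained it and 13 turned sign. These include the setting with an adjusted p under 0.05, in which no call could be lost. With library totals the Spc log2 fold change became 0.011 for Kif15, 0.39 for Kif18b, 0.19 for Kif20a, 0.62 for Kif20b, 0.43 for Kif21b, 0.045 for Kif2c and 0.58 for Racgap1, the stage change -0.33 for Kif20a and -0.11 for Kif3a, and the difference 0.15 for Kif4-ps. These totals also moved the median of all genes, and no other cause was tested. Without 1 library each, the Spc value ran from -0.14 (without WT replicate 2) to 0.23 for Cenpe and from -0.18 to 0.0094 (without KO replicate 2) for Kif20b, and the difference for Kif4-ps from -2.16 to 0.37 (without Spg KO replicate 3). Kif12, Kif22-ps and Kif16bos had few counts, and whether deeper libraries would change them was not tested.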
